A study of Mus musculus with 18 samples.

Results

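The genes described here act late in germ cell formation or in the piRNA pathway: Dazl, Ddx4, Sycp3, Piwil2, Mov10l1, Mael, Tdrd12, Tdrd9 and Asz1. They were picked by symbol from the deposited expression table, 9 of 25909 genes, and all 9 were found. PolyA RNA was sequenced from mouse SGET cells (strain B6CBA/129), an embryonic stem cell line with reporters linked to Stella and to Esg1, in 18 libraries with 3 for each of 6 groups. The groups were Esrrb KO and WT epiblast-like cells (EpiLC), Esrrb KO and WT primordial germ cell-like cells (PGCLC) after 3 days, and Esrrb KO and WT PGCLC after 5 days. All cells were kept in 2i/L medium before induction. EpiLC were made with activin A and bFGF on fibronectin and were not sorted. PGCLC were made from EpiLC with BMP4, LIF, SCF, BMP8a and EGF, and were sorted as SG+ETlow, so stage and sort cannot be told apart in any comparison of PGCLC with EpiLC. The KO libraries came from lines named A5, B1 and A2 (KO2 in the titles), 1 library for each line and stage, and the WT libraries carry the numbers 1, 2 and 3. Some sample descriptions call the later PGCLC d6, and they are called day 5 here, as in the titles.

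Germ cells silence transposons with piRNAs, short RNAs that guide PIWI proteins to transposon transcripts, and the helicases and Tudor proteins around them make the piRNAs and load them in cytoplasmic granules. In mice many of the genes for these proteins, and genes of meiosis and of germ cell identity such as Dazl, have CpG-rich promoters that are silenced by DNA methylation and by the PRC1.6 complex in other cells. They come on in primordial germ cells as DNA methylation is erased, mostly after the cells reach the gonad, which is later than the stages that PGCLC are taken to resemble.

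Libraries held 3032965 to 5286330 counts (median 4246221). The summed level of 6 germ cell markers (Dppa3, Prdm1, Prdm14, Tfap2c, Nanos3 and Dnd1) was 76.0 to 91.3 CPM, deposited counts scaled to a common library total, in KO EpiLC and 56.2 to 75.0 CPM in WT EpiLC. It was 711 to 939 CPM in KO and 791 to 825 CPM in WT at day 3, and 537 to 832 CPM in KO and 580 to 605 CPM in WT at day 5. Counts of Esrrb, the targeted gene, were 29 (A5), 18 (B1) and 167 (A2) in KO EpiLC and 79 to 127 in WT EpiLC. The EpiLC library labelled KO A2 thus held more than any WT EpiLC library. Whether this goes against its label was not tested, as all KO libraries held Esrrb counts. At day 3 and day 5 Esrrb held 359 to 933 counts in KO libraries and 2434 to 3125 in WT libraries. The EpiLC library labelled KO A2 also held the lowest sum of 6 formative epiblast markers, 934 CPM. This sum was 2620 CPM in KO A5, 3060 CPM in KO B1 and 3650 to 3710 CPM in WT EpiLC. Sums of 6 endoderm, 6 trophoblast and 6 mesenchyme markers in KO A2 EpiLC were 1150, 189 and 563 CPM. They were 187, 25.4 and 126 CPM in KO A5 and 88.8, 9.13 and 110 CPM in KO B1. The WT EpiLC libraries reached 55.0, 6.90 and 52.7 CPM, so each KO EpiLC library lay above WT in all of these sums. At day 3 endoderm markers summed to 76.3 (A5), 74.5 (B1) and 180 (A2) CPM in KO and up to 65.5 CPM in WT. Trophoblast markers summed to 58.2, 88.0 and 140 CPM in KO and up to 58.7 CPM in WT. Mesenchyme markers at day 3 summed to 41.8, 44.8 and 28.2 CPM in KO and up to 22.8 CPM in WT. At day 5 mesenchyme markers summed to 28.8, 30.4 and 83.2 CPM in KO and up to 14.2 CPM in WT. Endoderm markers summed to 92.9, 59.6 and 56.6 CPM in KO and up to 55.4 CPM in WT. Trophoblast markers at day 5 were at 38.6 to 44.7 CPM in KO and 42.6 to 60.6 CPM in WT. Markers of 2-cell-like cells (7 genes) summed to 1.27 to 14.6 CPM in KO and 2.51 to 5.07 CPM in WT EpiLC. They summed to 2.16 to 8.56 CPM in KO and 0.683 to 0.946 CPM in WT at day 3. At day 5 they summed to 5.24 to 16.3 CPM in KO and 1.22 to 2.85 CPM in WT. For the sum of 5 mesoderm markers KO and WT overlapped at each stage. A sum of 6 naive pluripotency markers, Esrrb among them, was 119 (A5), 61.4 (B1) and 246 (A2) CPM in KO EpiLC and 109 to 133 CPM in WT EpiLC. The same sum was 836 to 870 CPM in KO and 1680 to 1780 CPM in WT at day 3, and 856 to 1260 CPM in KO and 1640 to 1710 CPM in WT at day 5. The part of these markers in the values below was not tested. KO libraries of a stage differed among themselves more than WT libraries did, with a chi-square per degree of freedom of 3.996 to 34.619 for KO pairs and 1.121 to 1.844 for WT pairs. Nothing in the labels says that the WT numbers are separate cultures, so p-values measure the spread between these libraries, which may be technical. In bulk RNA, fewer cells of a type and less RNA per cell cannot be told apart.

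Transcripts of 7 of the 9 genes were counted in every library, while Tdrd9 and Asz1 were close to the limit of detection. Across all 18 libraries, levels per kilobase of exon averaged 17.1 CPM per kb for Tdrd12, 14.9 for Sycp3, 12 for Mael, 10.1 for Dazl, 9.34 for Ddx4, 6.95 for Piwil2 and 2.82 for Mov10l1. Asz1 averaged 0.278 and Tdrd9 0.108 CPM per kb. The order changed with the stage. In EpiLC Mael was highest per kilobase in both KO (17.4 CPM per kb) and WT (30.5 CPM per kb), and in KO EpiLC its libraries overlapped those of Sycp3. In WT PGCLC of day 5 Dazl was highest, at 24.1 CPM per kb, and its libraries lay above those of Tdrd12 (13.7 CPM per kb). In KO PGCLC of day 5 Tdrd12 was highest, at 22.0 CPM per kb, with libraries overlapping those of Sycp3.

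**Figure D1:**
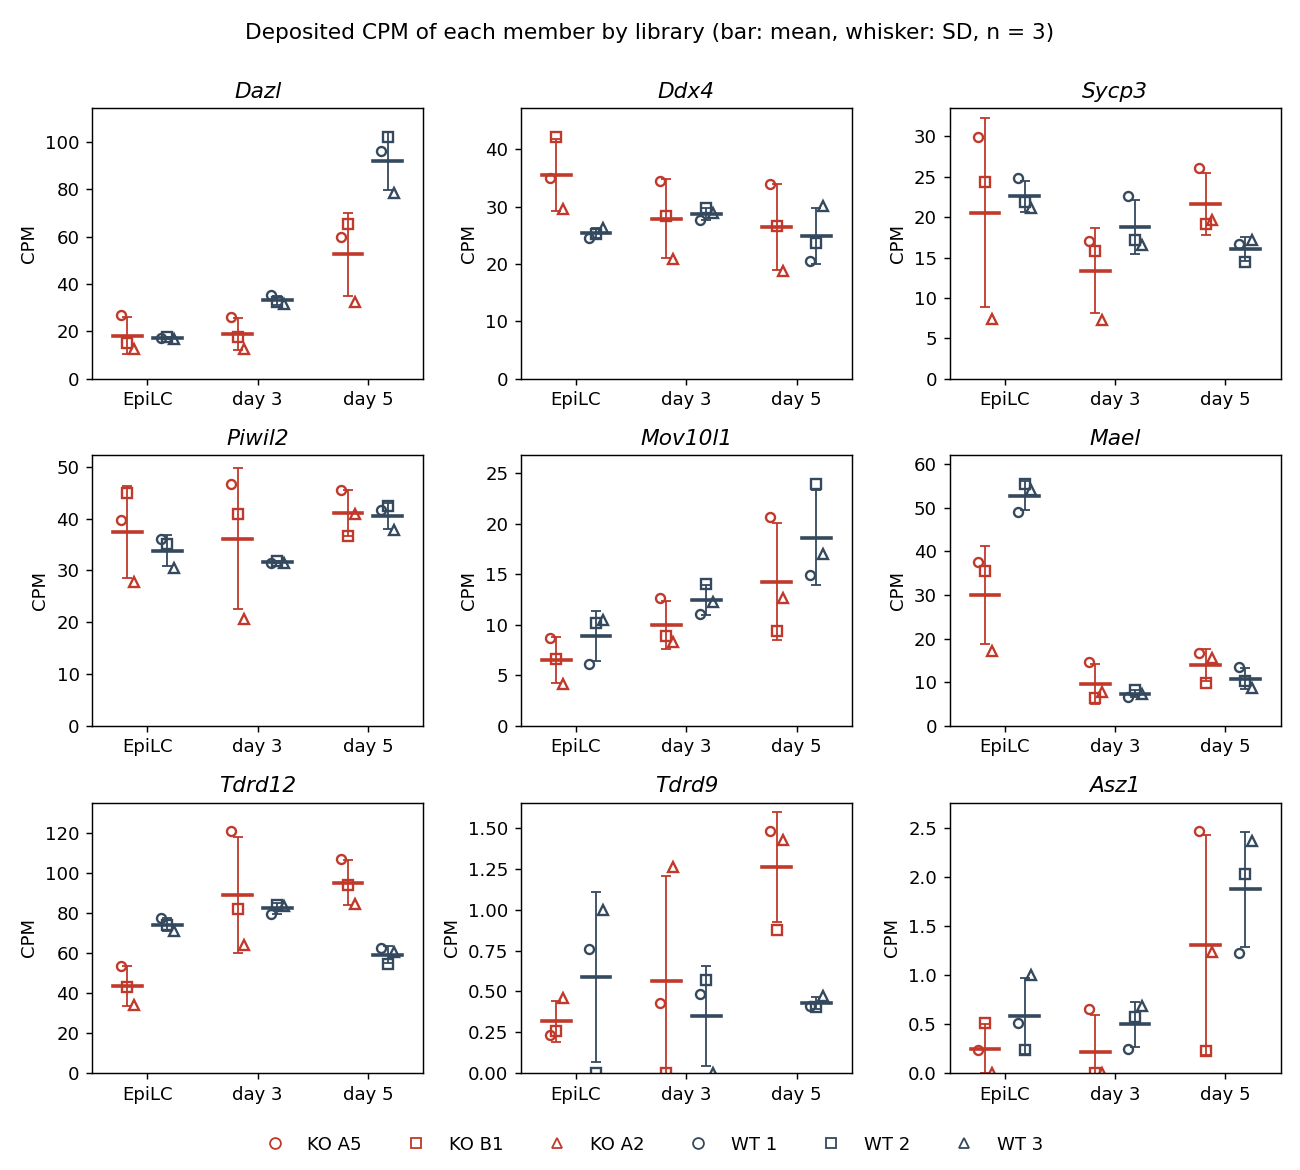
Deposited CPM of the 9 genes in each library, by stage on the horizontal axis, with KO (red) left of WT (dark). Each open symbol is a library (line or number as in the legend), the bar is the mean and the whisker the SD of 3 libraries. Dazl is highest at day 5, Mael is highest in EpiLC, and Tdrd12 is lower in KO than in WT in EpiLC and higher at day 5.

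Dazl, Mael and Tdrd12, the genes with the most calls, and Sycp3, which has 2 matches, are shown with the 250 bases before their start in RefSeq (GRCm38.p6), read 5′ to 3′ on the strand of the gene. Ddx4 and Tdrd9 also have 2 matches each and are not shown. Capitals mark matches to an E-box (CACGTG, a palindrome bound by MAX and MGA of PRC1.6), to GGCGGGAA (the type of site bound by E2F6, also of PRC1.6), to TCAAGGTCA (the type bound by ESRRB) or to TGACGTCA (the cyclic AMP response element), searched on both strands. No matches overlapped each other. The windows lie at chr17:50293621-50293870 for Dazl, chr1:166238745-166238994 for Mael and chr7:35537745-35537994 for the more upstream of 2 Tdrd12 starts, all on the minus strand, and at chr10:88459337-88459586 on the plus strand for Sycp3.
Dazl: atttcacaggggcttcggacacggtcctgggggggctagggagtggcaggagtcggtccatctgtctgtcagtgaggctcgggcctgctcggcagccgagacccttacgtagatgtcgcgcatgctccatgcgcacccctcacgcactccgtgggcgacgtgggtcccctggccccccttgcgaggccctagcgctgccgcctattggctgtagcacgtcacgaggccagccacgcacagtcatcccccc
Mael: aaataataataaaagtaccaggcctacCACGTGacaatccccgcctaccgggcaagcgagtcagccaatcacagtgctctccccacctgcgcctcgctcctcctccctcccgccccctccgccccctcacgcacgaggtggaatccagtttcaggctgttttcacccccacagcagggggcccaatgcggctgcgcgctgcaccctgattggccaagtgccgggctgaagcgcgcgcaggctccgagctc
Tdrd12: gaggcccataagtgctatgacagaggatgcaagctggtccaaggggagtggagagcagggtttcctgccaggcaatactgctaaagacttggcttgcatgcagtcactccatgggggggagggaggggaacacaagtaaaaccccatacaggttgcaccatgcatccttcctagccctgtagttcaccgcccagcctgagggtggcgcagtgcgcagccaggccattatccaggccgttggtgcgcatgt
Sycp3: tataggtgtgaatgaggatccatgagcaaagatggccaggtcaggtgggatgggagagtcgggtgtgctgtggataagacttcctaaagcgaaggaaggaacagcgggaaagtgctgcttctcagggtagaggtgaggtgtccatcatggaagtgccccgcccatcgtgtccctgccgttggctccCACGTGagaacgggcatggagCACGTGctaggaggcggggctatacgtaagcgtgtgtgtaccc
Of the 8 genes with a window in the table (Piwil2 has none), 5 held an E-box: Ddx4, Mael, Sycp3, Tdrd9 and Mov10l1. The same letters were in 6.02% of all 32851 windows. The E-box of Mael began 223 bases before the start, and those of Sycp3 began 64 and 43 bases before it. GGCGGGAA was in the window of Ddx4 and in 1.86% of all windows. TCAAGGTCA (0.387% of all windows) and TGACGTCA (1.55%) were in 0 of the 8. The windows of Dazl and Tdrd12 held no match, which says only that these letters are not in them. CpG dinucleotides numbered 20 in the window of Dazl, 18 for Mael, 12 for Sycp3 and 5 for the Tdrd12 window shown, against a median of 6 over all windows.

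Dazl (ENSMUSG00000010592, GRCm38 chr17:50279395-50293636, minus strand) encodes an RNA-binding protein that controls translation in germ cells and that mouse primordial germ cells need for their further development. Its level in EpiLC was 27.0 (A5), 15.0 (B1) and 12.7 (A2) CPM in KO libraries and 17.2, 17.8 and 16.8 CPM in WT libraries. At day 3 the KO libraries held 26.1 (A5), 17.8 (B1) and 12.6 (A2) CPM, and the WT libraries 35.4, 32.2 and 31.6 CPM. At day 5 the KO libraries held 60.0 (A5), 65.3 (B1) and 32.5 (A2) CPM, and the WT libraries 96.0, 102 and 78.3 CPM. KO and WT overlapped in EpiLC, while all KO libraries lay below all WT libraries at day 3 and at day 5, with line A2 lowest at each stage. Such a lack of overlap was seen for 36.5% of all tested genes at day 3 and 41.3% at day 5. In KO cells day 3 over EpiLC was not called (log2 fold change 0.07 ± 0.30 SE, adjusted p = 0.875, edgeR), and Dazl rose at day 5 over day 3 (1.43 ± 0.28, adjusted p = 0.0416). In WT cells it rose at both steps, by 0.88 ± 0.29 (adjusted p = 0.0158) and by 1.46 ± 0.27 (adjusted p = 0.0234). Over the whole route the level of day 5 was 2.88 times that of EpiLC in KO (1.50 ± 0.28, adjusted p = 0.000552) and 5.33 times in WT (2.34 ± 0.28, adjusted p = 5.31e-06). KO against WT, Dazl fell at day 5 (-0.82 ± 0.26, adjusted p = 0.0397) and had a difference at day 3 that missed the threshold (-0.79 ± 0.29, adjusted p = 0.0943) and passed without KO A5 (-1.12, adjusted p = 0.0318) or with the compared groups alone (adjusted p = 0.049). The difference of the first step between KO and WT was not called (-0.81 ± 0.42, adjusted p = 0.249). It passed with a replicate block over the KO line names and the WT numbers (adjusted p = 0.0462). The difference of the whole route was not called either (-0.84 ± 0.40, adjusted p = 0.188), and passed with the block (0.0295) and without line A2 (0.0408). In the order of group means WT of day 5 came first, then KO of day 5, WT of day 3, KO of day 3, KO EpiLC and WT EpiLC. KO of day 5 and WT of day 3 overlapped, as did KO of day 3 with both EpiLC groups. The call at day 5 was missed without WT 1, WT 2, WT 3, KO A5 or KO A2 at that stage (adjusted p up to 0.162, log2 fold change -0.57 without KO A2), and the call of day 5 over day 3 in WT was missed without any 1 of its 6 libraries (up to 0.143). In KO that call was missed without B1 or A2 of day 3, without A5 or B1 of day 5, and in a fit of the compared groups alone (up to 0.366).

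Ddx4 (ENSMUSG00000021758, GRCm38 chr13:112598333-112652475, minus strand), the mouse Vasa gene, encodes a DEAD-box RNA helicase of germ granules. It had 35.0 (A5), 42.1 (B1) and 29.6 (A2) CPM in KO EpiLC and 24.6, 25.2 and 26.3 CPM in WT EpiLC, with no overlap (as for 31.9% of all tested genes). At day 3 it averaged 27.9 ± 6.80 CPM in KO and 28.8 ± 1.01 CPM in WT, and at day 5 26.5 ± 7.56 CPM in KO and 24.8 ± 4.90 CPM in WT (SD, n = 3 each), with overlap at both stages. It was called in none of the 12 comparisons, the KO difference in EpiLC included (0.43 ± 0.20, adjusted p = 0.169). Without the 3 libraries of line A2 that difference passed (0.53, adjusted p = 0.0193). The level of day 5 against EpiLC in KO, at -0.46 ± 0.20 and adjusted p = 0.0761, passed with the replicate block (-0.48, adjusted p = 0.0136) and without line A2 (adjusted p = 0.0462).

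Sycp3 (ENSMUSG00000020059, GRCm38 chr10:88459569-88473236, plus strand) encodes a protein of the axial elements of the synaptonemal complex, which holds chromosomes together in meiosis. Its exons share 660 bases with Chpt1 on the opposite strand, and no source used here gives the strand setting of the counting, so its counts are uncertain. It held 29.9 (A5), 24.4 (B1) and 7.40 (A2) CPM in KO EpiLC and 24.8, 21.9 and 21.1 CPM in WT EpiLC. At day 3 it held 17, 15.8 and 7.30 CPM in KO (A5, B1 and A2) and 22.6, 17.2 and 16.6 CPM in WT, and at day 5 26.1, 19.2 and 19.6 CPM in KO and 16.7, 14.4 and 17.2 CPM in WT. Line A2 was far below the other KO lines in EpiLC and at day 3 but not at day 5. At day 5 all KO libraries lay above all WT libraries, and 41.3% of all tested genes had no overlap there. Sycp3 was called in none of the 12 comparisons, and a fit of WT EpiLC and WT of day 5 alone called it lower at day 5 (-0.57, adjusted p = 9.64e-05). Without line A2 the difference at day 5 (0.42 ± 0.35, adjusted p = 0.448 with all libraries) passed at 0.47 (adjusted p = 0.0388), and so did day 3 against EpiLC in KO (-0.70, adjusted p = 0.00285). Chpt1 followed another course, with 22.7 ± 3.74 CPM in KO and 33.8 ± 0.903 CPM in WT at day 3, against 12.4 ± 3.78 CPM in KO EpiLC and 11.1 ± 1.50 CPM in WT EpiLC.

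Piwil2 (ENSMUSG00000033644, GRCm38 chr14:70372477-70429383, minus strand), also called Mili, encodes a PIWI protein that binds piRNAs and cuts transposon RNA. Its mean level stayed between 31.6 and 41.0 CPM in the 6 groups, all neighbours in the order of groups overlapped, and it was called in none of the 12 comparisons. At day 3 the KO libraries held 46.6 (A5), 40.9 (B1) and 20.7 (A2) CPM and the WT libraries 31.5, 31.8 and 31.4 CPM. Lines A5 and B1 thus lay above every WT library and line A2 below them all. The difference there was 0.20 ± 0.22 (adjusted p = 0.612), and it passed without line A2 (0.48, adjusted p = 0.0055). In a fit of the WT groups of day 3 and day 5 alone Piwil2 was higher at day 5 (0.34, adjusted p = 0.00355).

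Mov10l1 (ENSMUSG00000015365, GRCm38 chr15:88982909-89055152, plus strand) encodes an RNA helicase that acts on piRNA precursors. It had 8.70 (A5), 6.60 (B1) and 4.16 (A2) CPM in KO EpiLC and 6.08, 10.2 and 10.5 CPM in WT EpiLC, and 12.7, 8.90 and 8.31 CPM in KO (A5, B1 and A2) and 11.1, 14.0 and 12.3 CPM in WT at day 3. At day 5 it had 20.7, 9.39 and 12.7 CPM in KO and 14.9, 23.9 and 17 CPM in WT. KO and WT overlapped at each stage, and in both the libraries of day 5 lay above those of EpiLC. Between these stages 40.3% of all tested genes had no overlap in KO and 76.8% in WT. Mov10l1 rose over the whole route in KO (1.10 ± 0.32, adjusted p = 0.011) and in WT (0.98 ± 0.31, adjusted p = 0.0123), and no single step was called. In fits of the compared groups alone both steps passed in WT (0.43, adjusted p = 0.0235 for day 3 against EpiLC, and 0.55, adjusted p = 0.00489 for day 5 against day 3). With the replicate block day 3 against EpiLC passed in KO (0.64, adjusted p = 0.032, or 0.128 without the block). The rise in WT was missed without WT 1 of EpiLC or WT 2 of day 5 (adjusted p up to 0.0653), and the rise in KO without KO A5 of day 5 or in a fit of the compared groups alone (up to 0.094).

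Mael (ENSMUSG00000040629, GRCm38 chr1:166201201-166238747, minus strand) encodes Maelstrom, a granule protein needed for transposon silencing in the male germline. In EpiLC it held 37.6 (A5), 35.5 (B1) and 17.1 (A2) CPM in KO and 49.1, 55.4 and 54.0 CPM in WT. At day 3 it held 14.7, 6.26 and 7.81 CPM in KO (A5, B1 and A2) and 6.50, 8.13 and 7.28 CPM in WT, and at day 5 16.7, 9.83 and 15.5 CPM in KO and 13.5, 10.3 and 8.73 CPM in WT. Mael was thus higher in each EpiLC library than in any PGCLC library of its genotype, and KO and WT overlapped at day 3 and day 5 but not in EpiLC. KO and WT EpiLC had no overlap for 31.9% of all tested genes. Against EpiLC, 39.6% had none at day 3 and 40.3% at day 5 in KO, and 76.6% and 76.8% in WT. Mael fell at day 3 to 31.8% of the EpiLC level in KO (-1.60 ± 0.31, adjusted p = 0.000692) and to 13.8% in WT (-2.90 ± 0.31, adjusted p = 1.5e-06). It was still below EpiLC at day 5 in KO (-1.12 ± 0.29, adjusted p = 0.00588, missed at 0.064 with the compared groups alone) and in WT (-2.35 ± 0.30, adjusted p = 7.85e-06). The KO difference in EpiLC was -0.87 ± 0.28 and just missed the threshold (adjusted p = 0.053), and it passed with DESeq2, without line A2, without KO A5 or without KO B1 (adjusted p from 0.0322). The differences between KO and WT in the drop were not called (1.3 ± 0.44, adjusted p = 0.0805 at day 3, and 1.23 ± 0.42, adjusted p = 0.0677 at day 5). The difference at day 5 passed with the replicate block (adjusted p = 0.0364), with DESeq2 (0.0442) and without KO A5 or B1 of EpiLC or KO B1 of day 5 (up to 0.0478), and that at day 3 with DESeq2 (0.0489) and without line A2 (0.0246). Mael lies on chromosome 1, where the median tested gene of line A2 was above the WT mean by 0.28, 0.29 and 0.31 (log2) at the EpiLC, day 3 and day 5 stages, against -0.02 to 0.04 in lines A5 and B1. With the chromosome medians taken out the EpiLC difference was -0.95 (adjusted p = 0.0513). None of the genes reported here lies on chromosome 11 or 16, where medians of some KO lines were further from WT. On chromosome 11 they were -0.48, -0.42 and -0.46 in A2, in the same order of stages. On chromosome 16 they were -0.45, -0.44 and -0.45 in A2 and -0.46, -0.44 and -0.40 in B1. What these shifts come from was not tested.

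Tdrd12 (ENSMUSG00000030491, GRCm38 chr7:35469098-35537745, minus strand) encodes a Tudor protein with a helicase domain that secondary piRNA production requires in mice. KO EpiLC held 53.8 (A5), 42.9 (B1) and 34.0 (A2) CPM and WT EpiLC 77.5, 74.0 and 71.0 CPM. At day 3 KO libraries held 121 (A5), 82.1 (B1) and 64.2 (A2) CPM and WT libraries 79.5, 84.2 and 83.5 CPM. At day 5 KO libraries held 107 (A5), 94.3 (B1) and 84.8 (A2) CPM and WT libraries 62.6, 54.6 and 60.6 CPM. All KO libraries lay below all WT libraries in EpiLC, the groups overlapped at day 3, and all KO libraries lay above all WT libraries at day 5. KO and WT had no overlap for 31.9% of all tested genes in EpiLC and 41.3% at day 5. Tdrd12 fell in KO EpiLC (-0.82 ± 0.18, adjusted p = 0.0154) and rose in KO at day 5 (0.68 ± 0.18, adjusted p = 0.0145). In KO it rose at day 3 to 2.04 times the EpiLC level (1.05 ± 0.18, adjusted p = 0.00031) and was at 2.19 times that level at day 5 (1.10 ± 0.18, adjusted p = 0.000172). In WT neither the first step (0.10 ± 0.18, adjusted p = 0.658) nor the second (-0.50 ± 0.18, adjusted p = 0.2) was called, and the second passed in a fit of the WT groups of those days alone (adjusted p = 5.17e-07) and without line A2 (0.00421), whose libraries enter the shared estimate of the spread. The change from EpiLC differed between KO and WT at day 3 (0.95 ± 0.25, adjusted p = 0.0361) and at day 5 (1.50 ± 0.26, adjusted p = 0.00183), and the second passed in all 20 alternatives run, the leaving out of each library included. The call at day 3 was missed in 11 of 20, among them the chromosome medians taken out (adjusted p = 0.0519) and the loss of the EpiLC library labelled KO A2 (0.0515). The EpiLC call was missed without WT 1, WT 2 or WT 3 and in a fit of the compared groups alone (up to 0.149), and that of day 5 without WT 2 (0.0684). Without line A2 the KO differences were -0.69 in EpiLC (adjusted p = 0.00188) and 0.75 at day 5 (adjusted p = 7.1e-05).

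Tdrd9 (ENSMUSG00000054003, GRCm38 chr12:111971559-112068854, plus strand), which encodes a helicase with a Tudor domain that works with the nuclear PIWI protein Piwil4, and Asz1 (ENSMUSG00000010796, GRCm38 chr6:18050964-18109061, minus strand), which encodes a protein anchored in mitochondria near germ granules, had too few counts for the test. Tdrd9 held 46 counts over all 18 libraries, from 0 to 7 in a library. Summed over the 3 libraries of a group it had 17 counts in KO and 6 in WT at day 5 (1.26 CPM, 95% Poisson interval 0.731 to 2.01, against 0.426 CPM, 0.156 to 0.928), and 4 to 7 in the other groups. Asz1 held 63 counts, from 0 to 10 in a library, with 17 in KO and 26 in WT at day 5 (1.26 CPM, 0.731 to 2.01, against 1.85 CPM, 1.21 to 2.71) and 3 to 7 in the other groups. Each gene was at 0 in 3 libraries. For a count of 0 the 95% Poisson limit on the upper side alone is about 3 counts, which would be 0.683 to 0.989 CPM in these libraries. The intervals above have limits on both sides. Such intervals and limits cover counting error only. In a fit without a filter on low counts neither gene was called in any of the 12 comparisons (adjusted p from 0.141 for Tdrd9 and from 0.0925 for Asz1). Asz1 passed the filter in some fits without 1 library or without line A2, and was called in 1 of the 104 values these and the unfiltered fit gave, higher at day 5 than in EpiLC in KO without KO B1 of day 5 (2.75, adjusted p = 0.0271).

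KO and WT were compared at each stage to ask what Esrrb loss changes before and after germ cell induction. Tdrd12 and Dazl were called among the 7 tested genes, numbers close to what the shares over all genes would give for 7 genes. A gene was called at an adjusted p under 0.05 over all 12856 genes tested. In EpiLC 1 of the 7 was called, Tdrd12 lower, where 11.1% of all tested genes were called. At day 3 it was 0 of 7, where 10.2% of all genes were called, and log2 fold changes ran from -0.79 for Dazl to 0.43 for Mael. At day 5 it was 2 of 7, Tdrd12 higher and Dazl lower, where 17.5% of all genes were called. The median over the 7 genes was -0.20 in EpiLC, -0.03 at day 3 and 0.09 at day 5, and over all tested genes 0.01 at each stage. KO and WT libraries had no overlap for 3, 1 and 3 of the 7 genes. The shares over all tested genes were 31.9%, 36.5% and 41.3%. Without line A2 the counts were 3 of 8 in EpiLC, 1 at day 3 and 3 at day 5. Asz1 was tested there as well and was not called. That fit called more genes at large, 1788, 2716 and 3887 of 12989, against 1424, 1309 and 2244 of 12856 with all libraries. With all libraries and the chromosome medians taken out, 1628, 1441 and 2384 of 12856 genes were called.

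**Figure D2:**
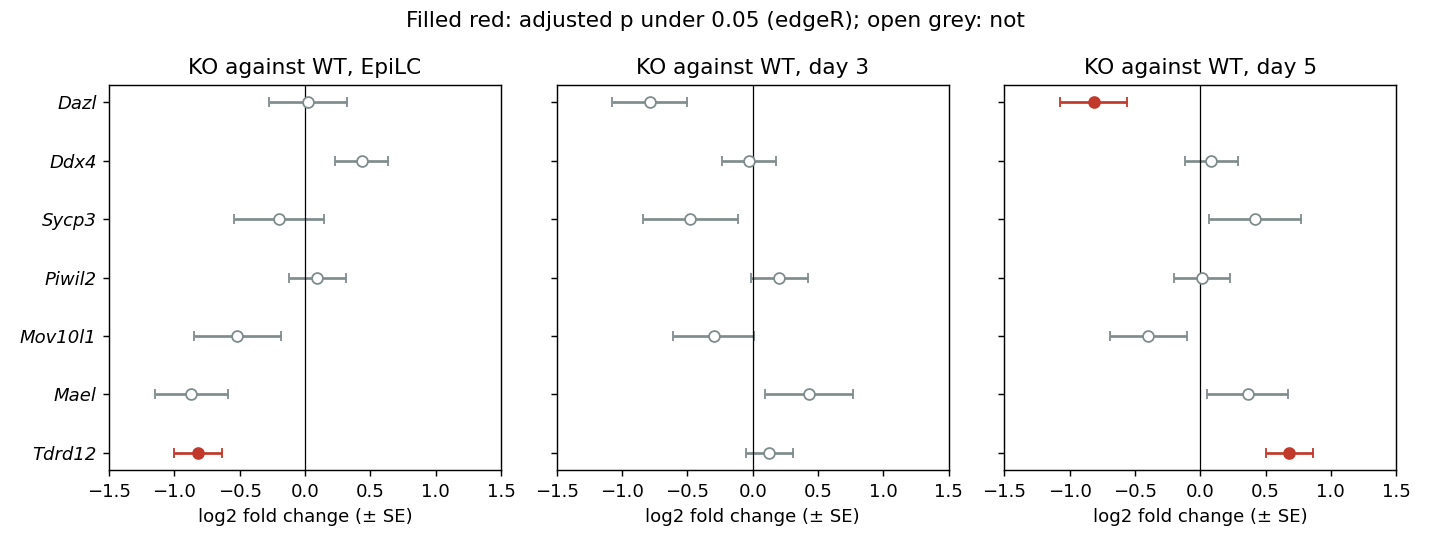
Log2 fold change of KO over WT with its SE for the 7 tested genes, at the EpiLC stage, day 3 and day 5 from left to right. Filled red points passed the test and open grey points did not: Tdrd12 in EpiLC (-0.82), and Dazl (-0.82) and Tdrd12 (0.68) at day 5.

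The stages were compared within each genotype to follow the genes along the route, and here the tests called Dazl, Mael, Tdrd12 and Mov10l1 in at least 1 comparison. For day 3 against EpiLC 2 of 7 were called in KO (Tdrd12 higher, Mael lower), where 42.0% of all genes were called, and 2 of 7 in WT (Dazl higher, Mael lower), where 57.5% were. For day 5 against day 3 Dazl alone was called in KO, where 0.552% of all genes were called, and in WT, where 0.77% were. Both shares depend on the fit, with 71 genes called in KO, 9 to 74 with each library left out, 873 without line A2 and 0 with the compared groups alone (913 at an unadjusted p under 0.05, 173 called by DESeq2), and 99 in WT, 10 to 18 with each library left out, 2016 without line A2 and 3678 with the compared groups alone. For day 5 against EpiLC, a comparison added after the values were seen, 4 of 7 were called in KO (Dazl, Tdrd12 and Mov10l1 higher, Mael lower), where 44.1% of all genes were, and 3 of 7 in WT (Dazl and Mov10l1 higher, Mael lower), where 58.0% were. The difference between KO and WT in the change from EpiLC to day 3 was called for 1 of 7, Tdrd12, and for 6.59% of all genes. From EpiLC to day 5 it was called again for Tdrd12 and for 10.3% of all genes. From day 3 to day 5 it was called for 0 of 7 and for 0.0% of all genes by edgeR, with 561 genes at an unadjusted p under 0.05 and 12 called by DESeq2. Comparisons that share a stage share its libraries, so the 2 steps and the whole route are not independent of each other. Without line A2 the counts in KO were 3 for day 3 against EpiLC, 1 for day 5 against day 3 and 5 for day 5 against EpiLC, and without its EpiLC library alone those against EpiLC were 3 and 5. Genes at large called in KO without line A2 were 7399, 873 and 7565, against 5394, 71 and 5675 with all libraries.

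**Figure D3:**
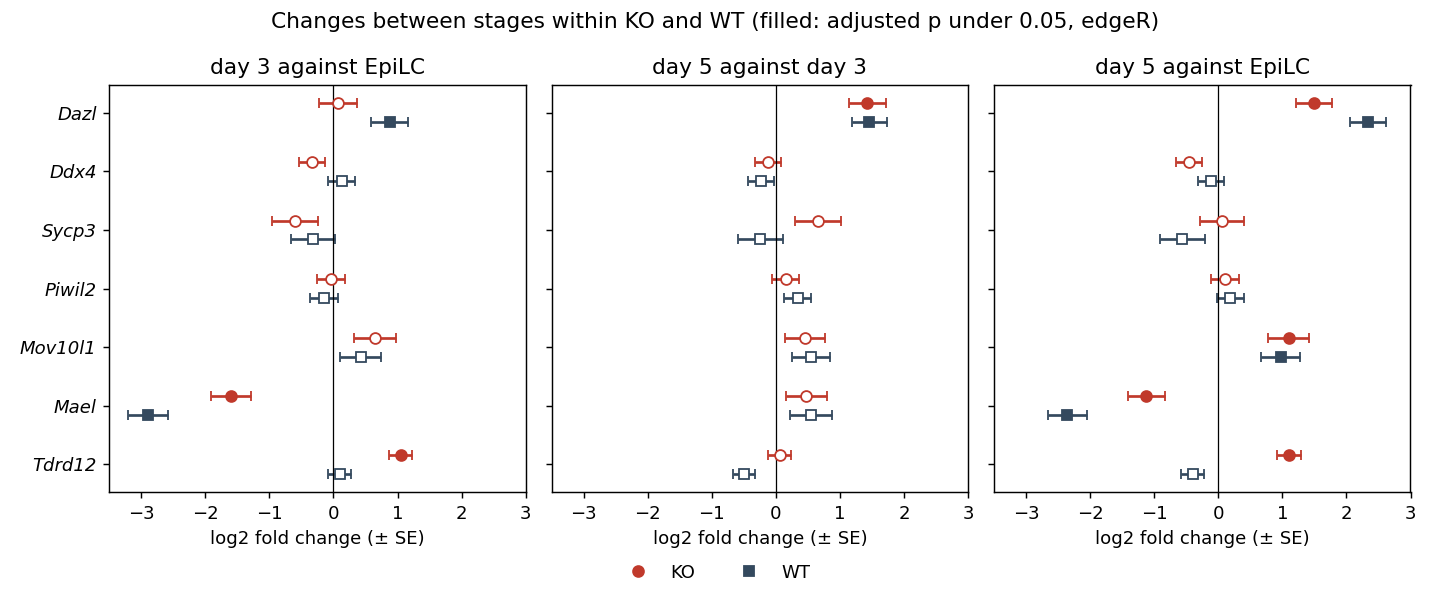
Log2 fold change with its SE for the 7 tested genes between stages, later stage over earlier, with KO (red circles) above WT (dark squares). Filled symbols passed the test. Dazl rises in both genotypes at day 5 over day 3, Mael is below EpiLC in both, and Tdrd12 passed against EpiLC in KO (1.05 at day 3 and 1.10 at day 5), while its values in WT (0.10 and -0.40) did not pass.

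Other genes of the piRNA pathway moved in both directions between stages, and those called between KO and WT were higher in KO. Of 22 listed, 17 were tested. KO against WT, 2 were higher and 0 lower in EpiLC, 1 and 0 at day 3, and 3 and 0 at day 5, with medians of 0.07, -0.0008 and 0.21 (log2) against 0.01 over all tested genes at each stage. Of all tested genes 6.93% were called higher and 4.15% lower in KO EpiLC, 5.0% higher and 5.18% lower in KO at day 3, and 9.83% higher and 7.62% lower in KO at day 5. Rnf17, a Tudor protein gene, rose in KO to 163 ± 7.71 CPM at day 3, against 126 ± 4.99 CPM in WT (0.38 ± 0.08, adjusted p = 0.00723), and to 184 ± 16.8 CPM at day 5, against 130 ± 4.83 CPM in WT (0.50 ± 0.08, adjusted p = 0.00054). At day 5 against EpiLC 1 of 17 rose and 3 fell in KO (median 0.14), and 3 rose and 6 fell in WT (median 0.17), where the median of all tested genes was -0.02 in KO and 0.0001 in WT. Of all tested genes 21.9% rose and 22.2% fell in KO and 29.0% rose and 29.0% fell in WT, so the piRNA genes were called no more often than genes at large. Tdrd1, a Tudor protein gene, fell to 1.88 ± 0.852 CPM at day 5 in KO, against 9.05 ± 0.737 CPM in KO EpiLC, and to 1.57 ± 0.122 CPM in WT, against 7.73 ± 1.43 CPM in WT EpiLC. Tex15, a gene of piRNA-guided silencing, was at 22.2 ± 3.09 CPM at day 5 and 68.4 ± 9.14 CPM in EpiLC of WT (-1.69 ± 0.35, adjusted p = 0.000702). In KO it was at 21.6 ± 10.6 and 51.2 ± 17.2 CPM (-1.25 ± 0.35, adjusted p = 0.00914, missed at 0.0673 with the compared groups alone).

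Of 22 listed genes of meiosis 15 were tested. Between KO and WT 2 rose and 3 fell in EpiLC, 1 rose and 1 fell at day 3, and 2 rose and 0 fell at day 5, with medians of -0.33, -0.28 and -0.04, beside shares over all genes of 11.1%, 10.2% and 17.5% called in either direction. Hormad2, which encodes a protein of meiotic chromosome axes, rose in KO to 48.3 ± 11 CPM at day 5, against 12.5 ± 1.02 CPM in WT (1.94 ± 0.24, adjusted p = 3.99e-05). At day 5 against EpiLC 7 of 15 rose and 2 fell in KO (median 0.54), where 44.1% of all genes were called, and 5 rose and 3 fell in WT (median -0.13), where 58.0% were. Stra8, the retinoic acid target that starts meiosis, was at 72.5 ± 7.19 CPM at day 5 and 9.58 ± 1.28 CPM in EpiLC of WT (2.84 ± 0.52, adjusted p = 0.000262). In KO it was at 79.0 ± 53.5 and 23.9 ± 13.3 CPM (1.69 ± 0.47, adjusted p = 0.00881). That call was missed without KO B1 of day 5 and with the compared groups alone (up to 0.102). The axis gene Sycp2 was at 1.15 ± 0.306 CPM at day 5 and 11.5 ± 1.3 CPM in EpiLC of WT (-3.38 ± 0.41, adjusted p = 5.42e-06). In KO it was at 3.07 ± 1.01 and 14.8 ± 7.16 CPM (-2.28 ± 0.36, adjusted p = 0.000121). Of 14 tested genes of other germline promoters under DNA methylation or PRC1.6, 7 rose and 2 fell at day 5 against EpiLC in KO (median 0.64), where 44.1% of all genes were called, and 5 rose and 3 fell in WT (median 0.63), where 58.0% were. Taf7l, a germ cell subunit of the general transcription factor TFIID, fell in both, to 4.57 ± 2.32 CPM at day 5 in KO, against 29.5 ± 3.46 CPM in KO EpiLC, and to 8.24 ± 1.47 CPM in WT, against 26.0 ± 2.12 CPM in WT EpiLC.

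Genes that set, read or remove DNA methylation, Tet1, Tet2 and Tet3 for its removal among them, and genes of PRC1.6 were tested as well, beside shares over all genes of 11.1%, 10.2% and 17.5% called in EpiLC, at day 3 and at day 5. The DNA methylation list also held Ehmt1, Ehmt2 and Setdb1, which encode histone methyltransferases. Of the 13 genes of this list 0 were higher and 1 lower in KO EpiLC, 1 and 0 at day 3, and 2 and 0 at day 5, with medians of -0.21, 0.13 and 0.06. The 2 at day 5 were Dnmt3a and Ehmt2 (0.59 ± 0.13, adjusted p = 0.00422 for Ehmt2). Dnmt3a, a de novo DNA methyltransferase gene, fell in KO EpiLC to 883 ± 114 CPM, against 1370 ± 31.5 CPM in WT, and rose in KO at day 5 to 195 ± 32.4 CPM, against 117 ± 9.87 CPM in WT. The first of these calls was missed without WT 1, WT 2 or WT 3 and with the compared groups alone (adjusted p up to 0.0979). Of 14 PRC1.6 genes 0 were higher and 2 lower in KO EpiLC, 1 and 0 at day 3, and 1 and 1 at day 5, with medians of -0.02, 0.02 and 0.07. Pcgf6, the defining Polycomb ring finger subunit of the complex, was at 98.9 ± 7.81 CPM in KO and 73.3 ± 3.09 CPM in WT at day 5 (0.43 ± 0.10, adjusted p = 0.00732). E2f6 was at 24.7 ± 1.78 CPM at day 5 and 54.1 ± 4.03 CPM in EpiLC of WT (-1.21 ± 0.14, adjusted p = 2.62e-06). In KO it was at 28.7 ± 2.5 and 62.7 ± 8.57 CPM (-1.15 ± 0.14, adjusted p = 8.49e-06). Of 15 tested early germ cell genes 9 were higher and 1 lower at day 3 than in EpiLC in KO (median 1.36), where 20.6% of all genes were higher and 21.4% lower, and 12 higher and 1 lower in WT (median 3.1), where 29.0% were higher and 28.5% lower. KO against WT, 3 of the 15 were higher and 1 lower in EpiLC, 2 and 0 at day 3, and 4 and 0 at day 5. The medians were 0.77, 0.12 and 0.17, beside the shares of 11.1%, 10.2% and 17.5% above. The EpiLC calls, Nanos3, Rhox9, Rhox6 and Dppa4, were missed without line A2.

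The genes whose pattern over the 6 group means was closest were found by the root mean square difference of log2 levels, each centred on its own mean. For Dazl, whose group means spanned 2.35 (log2), Rpl3l and Ace were among them (0.22 each), at 1.59 and 6.64 CPM on average. For Mael, spanning 2.84, they were Ms4a10, Pllp and Ntng2 (0.14 to 0.17), each under 2 CPM on average. For Tdrd12, spanning 1.11, they were Zfp455, Smagp and S100a16 (0.14 to 0.15), and for Mov10l1, spanning 1.46, Etfb, Mib2 and Zscan2 (0.06 to 0.10). Zfp455 averaged 2.42, Smagp 20.8 and S100a16 4.57 CPM. The likeness is a description of 6 points and has no test.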

How the data were processed

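Raw counts per gene were deposited by the authors for each of the 18 libraries, and a table of the series holds deposited CPM. The CPM equal the counts over the library total in all 18 columns (to within 1e-06). Per the labels, RNA was extracted with the PicoPure kit and libraries were made with a directional polyA kit. Trimming used Trim Galore 0.4.3.1, per the submitters' processing notes, which list mm10 and GRCm38.p4 as builds. No source used here gives the aligner, the counter or its strand setting. Each file lists 25965 rows, of which 56 name no gene (0.0559% to 0.0828% of a library's counts) and were left out. Levels per kilobase use exon lengths of GENCODE (GRCm38), and promoter windows come from RefSeq (GRCm38.p6).

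Counts were fitted with edgeR 4.0.16 in R 4.3.3: filterByExpr (12856 genes kept), TMM factors (0.964 to 1.037), 1 mean for each of 6 groups, robust quasi-likelihood test, Benjamini-Hochberg adjustment over all tested genes within a comparison, call at 0.05. Each SE is the absolute log2 fold change over the square root of the F statistic of the test. It rests on a spread per gene shared by all 6 groups, not on the compared groups alone. The procedure was tested on simulated data. Alternatives were RLE size factors, no filter, DESeq2 1.42.0, limma-trend (limma 3.58.1) on log2 of CPM plus 1, the compared groups alone, each library left out, line A2 left out, chromosome medians taken out, and a replicate block over KO line names and WT numbers. KO line names pair libraries by the correlation of their deviations from group means (9 of 9 pairs over 0.1, 0.11 to 0.588), and WT numbers do not (-0.048 to 0.066). All 9 genes are reported whatever their values. Of the other lists at most the 4 largest called changes of a comparison could be named, Esrrb as the targeted gene, and for likeness the 3 closest genes, of which 1 is not reported here. The genes, lists and alternatives were chosen with earlier results of these data known, and the 3 comparisons of day 5 with EpiLC were added after the values were seen.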

Additional observations from a re-analysis of the deposited data

Results flagged for a closer look

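The change of Tdrd12 from EpiLC differed between KO and WT. At day 3 the KO change minus the WT change was 0.95 (log2, SE 0.25, adjusted p = 0.0361, edgeR; missed in 11 of 20 alternatives, each WT library of EpiLC or day 3 left out among them), and at day 5 it was 1.50 (SE 0.26, adjusted p = 0.00183), a comparison added after the values were seen that passed in all 20. KO libraries held 34.0 to 53.8 CPM in EpiLC, 64.2 to 121 CPM at day 3 and 84.8 to 107 CPM at day 5, and WT libraries held 71.0 to 77.5, 79.5 to 84.2 and 54.6 to 62.6 CPM.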

How the results depend on the processing

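Over 1281 recomputed log2 fold changes of the 7 tested genes, 63 changed sign, 0 of them past the threshold in either fit. Piwil2 at day 3, KO against WT, ran from -0.043 without KO A5 to 0.48 without KO A2. KO against WT, the number of the 7 genes called in EpiLC was 1, and it was 2 with DESeq2, 0 with the compared groups alone, 3 without line A2, and 0 to 2 with each library left out. At day 3 it was 0, and 1 with the compared groups alone or without line A2, and 0 to 1 with each library left out. At day 5 it was 2, and 0 to 2 with each library left out. For day 3 against EpiLC it was 2 in WT, and 4 with the compared groups alone. For day 5 against day 3 it was 1 in KO, with 0 for the compared groups alone and 0 to 1 with each library left out, and 1 in WT, with 5 for the compared groups alone, 2 with the replicate block, 3 without line A2 and 0 with any library left out. For the difference between genotypes at day 3 it was 1, and 0 with chromosome medians taken out, limma-trend or the compared groups alone, 2 with DESeq2, the replicate block or without line A2, and 0 to 1 with each library left out. For day 5 against EpiLC it was 4 in KO, and 2 with the compared groups alone, and 3 in WT, and 5 with the compared groups alone or without line A2. For the difference between genotypes at day 5 it was 1, and 2 with DESeq2 or without line A2, 3 with the replicate block, and 1 to 2 with each library left out. In WT the replicate block added Tdrd12 at day 5 against day 3 (-0.50, adjusted p = 0.0268) and against EpiLC (-0.40, adjusted p = 0.00546), and beside the calls named in the report it changed no other. The cause of these shifts was not tested. Over all genes, KO against WT in EpiLC, edgeR called 1424 with all groups in the fit (3762 at an unadjusted p under 0.05), 181 to 2473 with each library left out and 0 with the compared groups alone (2425 at an unadjusted p under 0.05), and DESeq2 called 1829. Without line A2 edgeR called 1788 genes KO against WT in EpiLC, 2716 at day 3 and 3887 at day 5. Depth limits Tdrd9 and Asz1, which lie near the 95% limit for a count of 0, and 3 libraries a group with unequal spread between genotypes limit the rest.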
